A study of Homo sapiens with 6 samples.

Results

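The genes described here are MYC, MYCN, MAX and MXD1 of the MYC network, MAF, and the 3 D-type cyclin genes CCND1, CCND2 and CCND3, which are 8 of the 63677 genes in the deposited table. They were chosen by symbol through their Ensembl identifiers on primary chromosomes, a rule that uses no measured value. The 8 genes and the gene lists below were nevertheless chosen with earlier results of these data known. Their counts beside those of all genes are therefore descriptions. The RNA-Seq libraries came from RPMI8226, a human multiple myeloma cell line labelled WT in all samples. All 6 libraries were made after 6 hr with 100 nM of a protein that carries glutathione-S-transferase (GST), purified from bacteria. In 3 libraries the protein was GST alone, and in the other 3 it was GST-PTR1, in which the PTR1 domain of the extracellular matrix link protein HAPLN1 is fused to GST. The design has 1 line, 1 dose and 1 time point, and the comparison asks which transcripts differ when the PTR1 domain is present.

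MYC binds DNA as a heterodimer with MAX. MXD1, MXI1, MXD3, MXD4 and MNT bind the same partner and repress transcription at many of the same sites. MAF is a basic leucine zipper transcription factor that is expressed at high levels in the myelomas in which a translocation joins it to an immunoglobulin locus, and CCND2 is a known target of MAF in such cells. D-type cyclins activate CDK4 and CDK6, which phosphorylate RB1 and its relatives and so release E2F factors for entry into S phase.

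With GST the depth was 15202503, 20077280 and 23453473 counts per library, and with GST-PTR1 it was 22874133, 28837431 and 44688737. In order of depth the libraries of each treatment are called the shallowest, the middle and the deepest below. The floor of 3 counts was worth between 0.0671 and 0.197 counts per 1000000 counts of a library (CPM). Levels are given as RPKM, the reads per kilobase of exon and per 1000000 counts after scaling by TMM (trimmed mean of M-values), which makes genes of different length comparable. Library values are listed in order of depth within each treatment. Fold changes are log2 values of GST-PTR1 against GST from edgeR's quasi-likelihood test, with the standard error (SE), and a gene was called changed at an adjusted p under 0.05 over all 16926 genes tested. Of these, 1549 were called higher and 1937 lower, and the split was 927 higher and 3795 lower when library totals were used in place of TMM factors, which moved the median over all genes from 0.01 to -0.19 on the log2 scale. Of the plasma cell markers all 10 were detected, with JCHAIN, the joining chain of polymeric immunoglobulin, at 1292 ± 91.4 RPKM (SD, n = 3) with GST and 1358 ± 274.2 with GST-PTR1. All 5 T and NK cell markers were at 3 counts or fewer in every library, and the summed monocyte and stromal markers stayed between 0.24 and 1.56 CPM in all libraries. These are bulk values, in which fewer cells with a transcript and less of it per cell cannot be told apart.

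All 8 genes passed the filter on low counts. CCND2 was called higher with GST-PTR1, and MYCN and MAF were called lower, so that 3 of 8 were called in either direction where 20.6% of all tested genes were. In the higher direction the count was 1 of 8 against 9.15% of all genes, and in the lower direction 2 of 8 against 11.4%. For 5 of the 8 genes the libraries of the treatments did not overlap, 3 higher and 2 lower, while 40.4% of all tested genes had no overlap. The median log2 fold change of the 8 genes was 0.10, beside 0.01 for all genes tested, and -0.10 with library totals, beside -0.19. Among the GST-PTR1 libraries the deepest had the lowest value of 7 of the 8 genes, and among the GST libraries the middle one had the lowest of 7. The part of these libraries in the results was examined by leaving each one out.

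**Figure D1:**
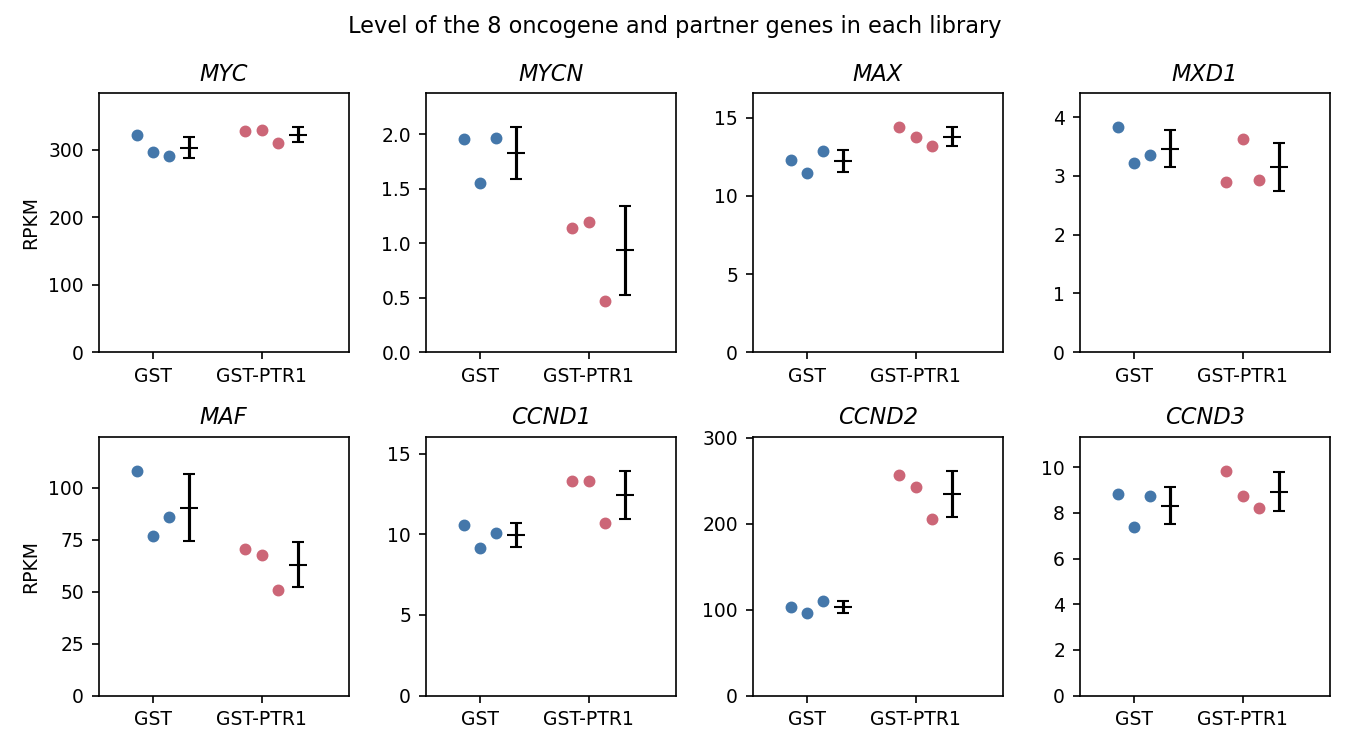
RPKM of each of the 8 genes (y axis, from 0) in the 3 GST libraries (blue) and the 3 GST-PTR1 libraries (red), in order of depth within each treatment; black marks are the mean with 1 SD. CCND2 lies between 95.8 and 109.9 with GST and between 205.2 and 257.0 with GST-PTR1, whereas the MYC values of the treatments overlap.

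In order of level, MYC came first in both treatments and MYCN last. With GST, MYC was followed by CCND2 and MAF, whose library values overlapped, and then by MAX, CCND1, CCND3 and MXD1. With GST-PTR1, the order of the means was the same, but the values of CCND2 and MAF no longer overlapped, while those of MAX and CCND1 did. Among the 16926 tested genes MYC ranked 144 by mean RPKM with GST and 180 with GST-PTR1. CCND2 moved from rank 516 to 255, and MAF from 592 to 1092.

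MYC (ENSG00000136997; GRCh37, chromosome 8, 128747680 to 128753674, plus strand) encodes the transcription factor c-MYC. Its level was 321.7, 297.1 and 291.7 RPKM with GST and 328.2, 330.0 and 310.5 RPKM with GST-PTR1. The lowest GST-PTR1 library lay below the highest GST library, and the means were 303.5 ± 16 and 322.9 ± 10.8 (SD, n = 3 each). The log2 fold change was 0.09 (SE 0.11, 95% interval -0.15 to 0.33, adjusted p = 0.586), and it was -0.11 with library totals. Counts on MYC ran from 16030 to 36642 per library. The call stayed absent in all 15 alternative settings.

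MYCN (ENSG00000134323; GRCh37, chromosome 2, 16080686 to 16087129, plus strand), the MYC family member best known from neuroblastoma, was near the bottom of the range. It was present at 1.96, 1.55 and 1.97 RPKM with GST and at 1.14, 1.20 and 0.468 with GST-PTR1. Every GST library lay above every GST-PTR1 library, and the deepest GST-PTR1 library was the lowest. These levels rest on between 48 and 128 counts per library. MYCN fell by 1.00 on the log2 scale (SE 0.31, 95% interval -1.68 to -0.33, adjusted p = 0.0409). The call was lost without any one of the 3 GST libraries (adjusted p = 0.0584 without the shallowest, 0.0609 without the middle and 0.128 without the deepest), and without the deepest GST-PTR1 library, where the log2 value was -0.63 (adjusted p = 0.0684).

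MAX (ENSG00000125952; GRCh37, chromosome 14, 65472892 to 65569413, minus strand), the shared dimer partner, was at 12.3, 11.5 and 12.9 RPKM with GST and at 14.4, 13.8 and 13.2 with GST-PTR1. The treatments did not overlap, but the gap between the highest GST and the lowest GST-PTR1 library was smaller than the SD within either. The log2 fold change was 0.17 (SE 0.10, 95% interval -0.05 to 0.39, adjusted p = 0.239) and -0.02 with library totals. MXD1 (ENSG00000059728; GRCh37, chromosome 2, 70124820 to 70170077, plus strand), which pairs with MAX as a repressor, was at 3.83, 3.22 and 3.35 RPKM with GST and 2.90, 3.63 and 2.93 with GST-PTR1. Its libraries overlapped, and the log2 fold change was -0.14 (SE 0.13, 95% interval -0.43 to 0.15, adjusted p = 0.486). On 3.75% of its exon bases MXD1 overlaps SNRNP27 on the same strand, and reads there were left out of the counts.

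The wider network of MYC, MAX and MLX held 13 tested genes, of which 0 were called higher and 5 lower by edgeR's test, with a median log2 fold change of -0.06. Called genes made up 38.5% of this list, beside 20.6% of all tested genes. The split was 2 higher and 3 lower without the shallowest GST library, and 2 higher and 5 lower with the trend over exon length removed. Without the deepest GST library 2 genes were called, without the middle GST-PTR1 library 3 and without the deepest GST-PTR1 library 2, all lower. In the higher direction of the full comparison 1 gene, MXI1, had an unadjusted p under 0.05, and DESeq2 called 1 gene and limma's voom 0. At an adjusted p of 0.0596 MXI1, another MAX-binding repressor, had the nearest value to the threshold in the higher direction, at 9.34 ± 0.931 RPKM with GST and 11.7 ± 0.505 with GST-PTR1 (log2 0.32, SE 0.11). Besides MYCN, the genes that fell were MYCL, the third MYC family member, and the repressors MXD3, MXD4 and MNT. MXD3 was at 3.37, 2.91 and 3.22 RPKM with GST and at 2.19, 1.83 and 1.71 with GST-PTR1. Its treatments were well apart (log2 -0.73, SE 0.14, adjusted p = 0.0036), and the call held in all 15 alternatives. On 18% of its exon bases MXD3 overlaps RAB24 on the same strand. Reads there were left out of the counts, but RPKM divides by the full exon length, also in the ratio below. MXD4 fell from 3.79 ± 0.547 to 2.52 ± 0.235 RPKM (log2 -0.58, SE 0.14, adjusted p = 0.0117).

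MYCL was at 0.540 ± 0.143 RPKM with GST and 0.244 ± 0.092 with GST-PTR1 (log2 -1.16, SE 0.30, adjusted p = 0.0195). Its call was lost without the deepest GST library (adjusted p = 0.0646) and without the middle (0.0737) or the deepest GST-PTR1 library (0.0574). MNT, at 4.35 ± 1.10 and 2.92 ± 0.496 RPKM, was close to the threshold (log2 -0.58, SE 0.18, adjusted p = 0.0478). It was lost without the shallowest (adjusted p = 0.13, log2 -0.36) or the deepest GST library (0.0862), and without the middle (0.0989) or the deepest GST-PTR1 library (0.14), and with at least 10 counts required in every library (0.0516). MLX, the dimer partner of the MondoA branch, was at 14.6 ± 1.16 and 15.7 ± 1.07 RPKM and was not called.

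Because MYC and these repressors share MAX, their balance was taken within each library, where scaling between libraries has no effect. The ratio of MYC to the summed RPKM of MXD1, MXI1, MXD3, MXD4 and MNT was 11.6, 13.6 and 12.8 with GST and 14.7, 14.1 and 14.9 with GST-PTR1. All GST-PTR1 libraries lay above all GST libraries, but the highest GST ratio, 13.6, was close to the lowest GST-PTR1 ratio, 14.1. Of all tested genes, 40.4% had no overlap in one direction or the other. The summed repressors overlapped, at 27.6, 21.9 and 22.8 RPKM with GST and 22.3, 23.3 and 20.8 with GST-PTR1, and so did MYC. MXI1, the most abundant of these repressors, was higher in all GST-PTR1 libraries. On the log2 scale the difference was 0.206, from 3.66 ± 0.11 to 3.87 ± 0.0408 (two-sided exact permutation p = 0.1, adjusted p = 0.1 over 4 such tests, the smallest p that 3 against 3 libraries allows). Without the shallowest GST library this difference was 0.147. The ratio of MYC to MAX was between 22.6 and 26.1 with GST and between 22.8 and 23.9 with GST-PTR1, which overlapped.

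Genes listed as acting on the MYC protein or as its cofactors, 20 in all, had a median log2 fold change of 0.07, with 3 called higher and 1 lower. The called share was 20%, beside 20.6% of all tested genes. With library totals the median was -0.12, with 3 called higher and 2 lower. The 3 that rose were the PIM kinases, serine/threonine kinases that can phosphorylate and stabilize MYC. PIM1 was at 23.8, 18.5 and 19.9 RPKM with GST and at 94.8, 102.1 and 95.2 with GST-PTR1 (log2 2.23, SE 0.12, adjusted p = 3.37e-07). PIM2 rose from 277.4 ± 35.7 to 1245 ± 62.6 RPKM (log2 2.17, SE 0.14, adjusted p = 1.18e-06), so that with GST-PTR1 it stood above MYC itself. PIM3 rose from 32.4 ± 4.38 to 79.8 ± 9.47 RPKM (log2 1.30, SE 0.13, adjusted p = 4.55e-05). The PIM calls held in all 15 alternatives. USP28, a deubiquitinase that removes ubiquitin from MYC, was at 5.83 ± 0.262 and 4.58 ± 0.258 RPKM (log2 -0.35, SE 0.11, adjusted p = 0.0418), and this call was lost in 10 of 15 alternatives, including the omission of any 1 library (adjusted p between 0.0739 and 0.154).

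Of 49 genes listed as activated by MYC, 17 were called higher and 2 lower with GST-PTR1, with a median log2 fold change of 0.31 beside 0.01 for all genes. In either direction 38.8% were called, beside 20.6% of all tested genes. The count depended on the scaling and on single libraries. With library totals it was 7 higher and 4 lower, and the list median was 0.11 where that of all genes was -0.19. The genes called numbered 11 without the shallowest GST library, 9 without the deepest GST library and 9 without the middle GST-PTR1 library. Among those that rose, TFRC, the transferrin receptor, went from 89.9 ± 6.77 to 147.9 ± 15.1 RPKM (log2 0.72, SE 0.12, adjusted p = 0.00206). HK2, the glycolytic hexokinase 2, went from 13.3 ± 1.57 to 22.4 ± 3.84 RPKM (log2 0.76, SE 0.14, adjusted p = 0.00311), and RRP12, which acts in ribosome assembly, from 13.3 ± 1.20 to 20.2 ± 2.06 (log2 0.60, SE 0.11, adjusted p = 0.00379). The calls of these 3 genes held in all 15 alternatives.

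The genes that fell on that list were E2F2 and TERT, the catalytic subunit of telomerase. TERT, named after its values were seen, was at 4.2 ± 1.09 and 2.65 ± 0.483 RPKM (log2 -0.66, SE 0.19, adjusted p = 0.0325). Its call was lost without the shallowest (adjusted p = 0.0807) or the deepest GST library (0.0563), and without the middle (0.0928) or the deepest GST-PTR1 library (0.0957). The most abundant genes of the list, the glycolytic enzymes ENO1 and PKM, had no call in the full comparison. ENO1 was called higher in 2 of the 15 alternatives, DESeq2's test and the removal of the exon length trend, and PKM in 0. ENO1 was at 841.5 ± 41.4 RPKM with GST and 1043 ± 47.6 with GST-PTR1 (adjusted p = 0.0975), and PKM at 402.2 ± 13.7 and 455.2 ± 4.36 (adjusted p = 0.304).

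Of the 12 genes listed as repressed by MYC, 8 were tested, and NDRG2, GAS1, CEBPA and THBS1 were at 3 counts or fewer in every library. Of the 8, 4 were called higher and 1 lower, with a median log2 fold change of 0.21. The calls covered 62.5% of the tested genes of the list, beside 20.6% of all tested genes. With library totals 3 were called higher and 3 lower, and the median was 0.01. FTH1, the heavy chain of the iron store ferritin, rose from 269.0 ± 39.3 to 681.2 ± 80.8 RPKM (log2 1.34, SE 0.14, adjusted p = 7.69e-05). NDRG1, a stress-induced gene, fell from 12, 7.93 and 8.28 RPKM to 3.15, 2.82 and 2.56 (log2 -1.73, SE 0.16, adjusted p = 2.98e-05). Both lists thus held genes that moved in each direction. The other genes of the list that rose were the CDK inhibitors CDKN1A, CDKN1B and CDKN2B.

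**Figure D2:**
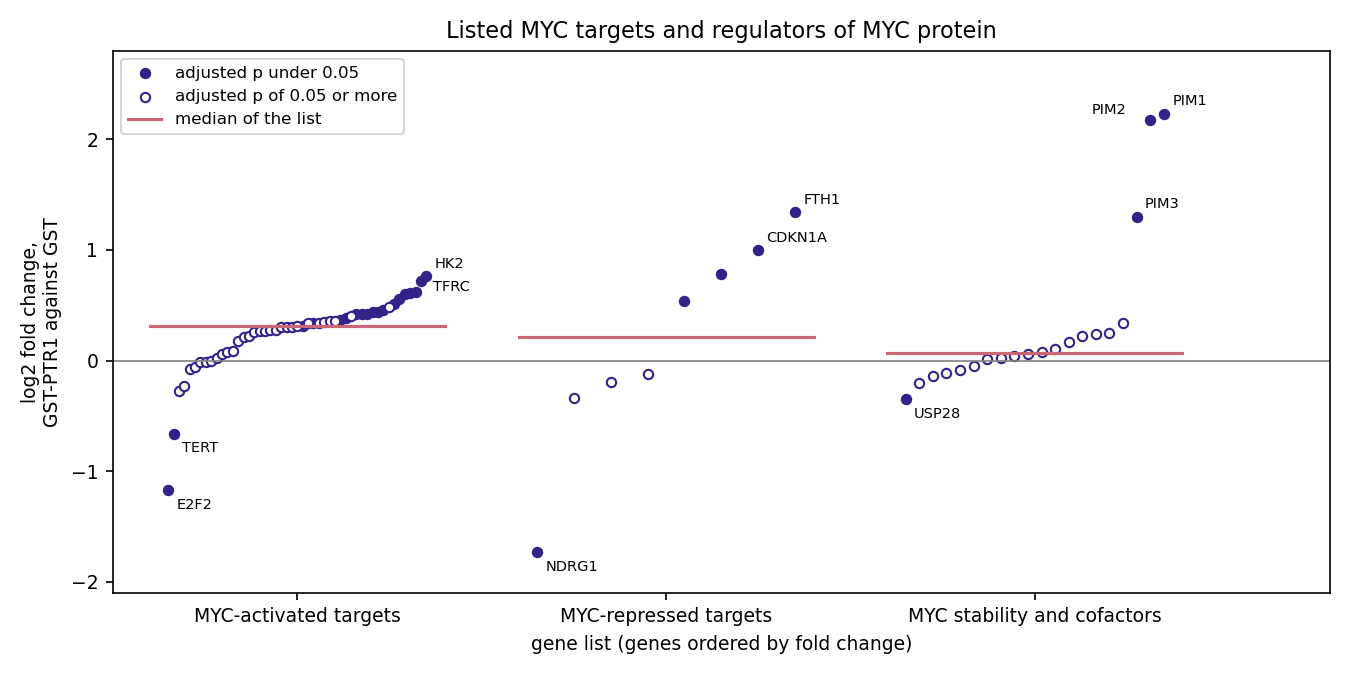
Log2 fold change of GST-PTR1 against GST (y axis) for the tested genes of the 3 MYC lists, ordered by fold change within each list; filled points are called, open points are not, and the red line is the list median. The medians are 0.31, 0.21 and 0.07, and PIM1, PIM2 and PIM3 lie above the rest of their list.

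MAF (ENSG00000178573; GRCh37, chromosome 16, 79619740 to 79634611, minus strand) was abundant in these cells. Its level was 108.3, 77.1 and 86.2 RPKM with GST and 70.7, 67.9 and 50.8 RPKM with GST-PTR1. The treatments did not overlap, but the lowest GST library lay close to the highest GST-PTR1 library. MAF fell 1.43-fold, from 90.5 ± 16.1 to 63.1 ± 10.8 RPKM (SD, n = 3 each), with a log2 fold change of -0.52 (SE 0.16, 95% interval -0.87 to -0.17, adjusted p = 0.0418). The call was lost when 1 of 4 libraries was left out. Without the shallowest GST library the log2 value was -0.37 (adjusted p = 0.107), without the deepest GST library -0.55 (0.0928), without the middle GST-PTR1 library -0.57 (0.0764) and without the deepest -0.37 (0.111). The direction was the same in all 15 alternatives.

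The promoter of MAF is shown as a description only. In myeloma MAF can be expressed from a translocated allele as well as from an intact one. Neither the counts nor this reference sequence tell these apart. The RefSeq promoter table, on GRCh38.p14, held entries for 5 of the 8 genes: MYCN, MAX, MXD1, MAF and CCND3. The 250 bases before the start of MAF lie at chr16:79600738-79600987 and are printed along the minus strand, 5′ to 3′, with an 8-base cyclic AMP response element and a TATA box in capitals, both chosen after the sequence was seen.
MAF: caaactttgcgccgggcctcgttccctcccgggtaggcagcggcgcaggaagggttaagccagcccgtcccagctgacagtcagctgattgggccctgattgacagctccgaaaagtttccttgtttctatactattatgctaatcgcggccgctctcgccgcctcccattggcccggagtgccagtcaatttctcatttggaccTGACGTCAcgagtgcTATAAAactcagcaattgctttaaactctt
The element TGACGTCA begins at position -45 from the start and TATAAA at position -30. Searched on both strands, they occur in 1.65% and 10.7% of the 35116 promoters of the table over the same 250 bases. The E-box CACGTG, bound by MYC with MAX, occurs in 6.34% of them, and the AP-1 site TGANTCA in 6.57%; neither was found in the entries of the 5 genes. The sequence TGCTGAC, the core of MAF recognition elements, found in 3.43% of all promoters, was in 1 of the 3 entries of CCND3. The kappaB consensus of GGG and CC separated by 5 bases of any kind, found in 54.4% of all promoters, was in at least 1 entry of each of the 5 genes.

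The small MAF genes MAFG, MAFK and MAFF, whose products lack the transactivation domain, were not called. MAFA, a large MAF gene, had between 2 and 4 counts per library and was not tested. MAFG was at 13.1 ± 1.37 RPKM with GST and 12.7 ± 1.27 with GST-PTR1 (log2 -0.04, 95% interval -0.29 to 0.22, adjusted p = 0.85). MAFK was at 6.51 ± 1.23 and 8.01 ± 1.09 RPKM (log2 0.30, 95% interval -0.04 to 0.64, adjusted p = 0.191) and MAFF at 1.85 ± 0.386 and 2.46 ± 0.417 (log2 0.41, 95% interval -0.02 to 0.84, adjusted p = 0.155). On 35% of its exon bases MAFK overlaps another gene on the same strand, and reads there were left out of the counts. NRL, the MAF family factor of rod photoreceptors, was close to the floor with between 5 and 21 counts.

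The 5 listed MAF targets of myeloma, CCND2, CCR1, NUAK1, DEPTOR and ITGB7, did not move together. CCND2, CCR1 and NUAK1 were called higher, DEPTOR lower and ITGB7 not at all, and the list median was 0.53. These calls were the same in number, 4 of 5, in all 15 alternatives. Over all tested genes 20.6% were called. DEPTOR, an inhibitor of mTOR that is abundant in MAF-translocated myeloma, was at 41.9, 27.7 and 28.2 RPKM with GST and at 15.8, 11.3 and 12.8 with GST-PTR1. All GST-PTR1 libraries lay below all GST libraries (log2 -1.30, SE 0.18, adjusted p = 0.000458).

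CCR1, a chemokine receptor, was at 99.2, 102.1 and 100.8 RPKM with GST and 145.2, 144.8 and 146.7 with GST-PTR1. The spread within each treatment was small beside the difference (log2 0.53, SE 0.10, adjusted p = 0.00284). NUAK1, a kinase related to AMPK, rose from 3.29 ± 0.660 to 5.27 ± 0.499 RPKM (log2 0.68, SE 0.15, adjusted p = 0.00854). ITGB7, the integrin β7 chain, was at 441.5, 245.6 and 290.6 RPKM with GST and at 413.1, 226.5 and 253.7 with GST-PTR1. The shallowest library of each treatment was the highest, the treatments overlapped, and the interval of the log2 fold change was wide (-0.13, 95% interval -0.68 to 0.42, adjusted p = 0.742).

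**Figure D3:**
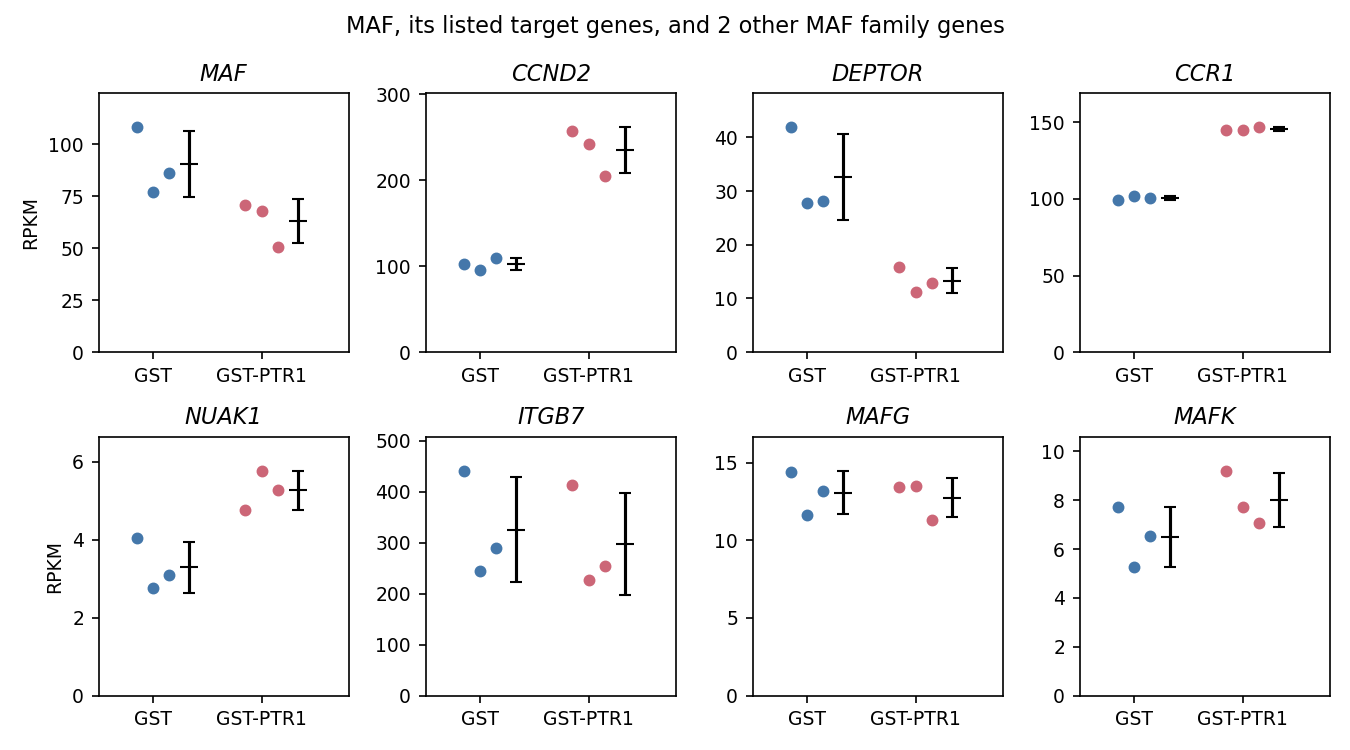
RPKM (y axis, from 0) of MAF, its 5 listed targets, MAFG and MAFK in the 3 GST libraries (blue) and the 3 GST-PTR1 libraries (red), in order of depth; black marks are the mean with 1 SD. MAF and DEPTOR are lower with GST-PTR1, while CCND2, CCR1 and NUAK1 are higher, and the values of ITGB7, MAFG and MAFK overlap.

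CCND2 (ENSG00000118971; GRCh37, chromosome 12, 4382938 to 4414516, plus strand), which encodes cyclin D2, had the smallest adjusted p of the 8 genes. Its level was 103.0, 95.8 and 109.9 RPKM with GST and 257.0, 242.4 and 205.2 RPKM with GST-PTR1. The treatments were far apart, with the deepest GST-PTR1 library the lowest of its group. CCND2 rose 2.28-fold, from 102.9 ± 7.06 to 234.9 ± 26.7 RPKM (SD, n = 3 each), with a log2 fold change of 1.19 (SE 0.13, 95% interval 0.91 to 1.47, adjusted p = 7.59e-05). The call held in all 15 alternatives, with log2 values between 1.00 and 1.29. The ratio of CCND2 to MAF within a library was 0.952, 1.24 and 1.28 with GST and 3.64, 3.57 and 4.04 with GST-PTR1, so that the nearly equal levels of these genes with GST were no longer so with GST-PTR1.

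CCND1 (ENSG00000110092; GRCh37, chromosome 11, 69455855 to 69469242, plus strand), the cyclin D1 gene that is joined to the immunoglobulin heavy chain locus in some myelomas, was at 10.6, 9.15 and 10.1 RPKM with GST and at 13.3, 13.3 and 10.7 with GST-PTR1. The treatments did not overlap, although the deepest GST-PTR1 library lay close to the GST libraries. The log2 fold change was 0.32 (SE 0.12, 95% interval 0.06 to 0.58, adjusted p = 0.0764), which missed the threshold. Without that library the log2 value was 0.44 (adjusted p = 0.0237) and the gene was called, and it was called in 3 of the 15 alternatives in all. CCND3 (ENSG00000112576; GRCh37, chromosome 6, 41902671 to 42018095, minus strand), the cyclin D3 gene, was at 8.82, 7.37 and 8.74 RPKM with GST and at 9.84, 8.75 and 8.20 with GST-PTR1. These overlapped, with a log2 fold change of 0.10 (SE 0.12, 95% interval -0.16 to 0.36, adjusted p = 0.561) that was -0.09 with library totals.

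Summed over the 3 genes, the cyclin D level was 122.5, 112.3 and 128.8 RPKM with GST and 280.2, 264.5 and 224.1 with GST-PTR1. CCND2 made up 84.1%, 85.3% and 85.4% of the sum with GST and 91.7%, 91.7% and 91.6% with GST-PTR1. Its share was thus higher in all GST-PTR1 libraries, by 6.72 percentage points (84.9 ± 0.681 against 91.6 ± 0.0933). The share of CCND1 was 8.22 ± 0.402% and 4.86 ± 0.151%, and that of CCND3 6.85 ± 0.327% and 3.49 ± 0.175%. Each of these differences had a two-sided exact permutation p of 0.1 and an adjusted p of 0.1 over 4 tests, the smallest that 3 against 3 libraries can give. Because the 3 shares of a library add up to the whole, their tests are not independent of each other. The lower shares of CCND1 and CCND3 went with levels that were not called lower.

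**Figure D4:**
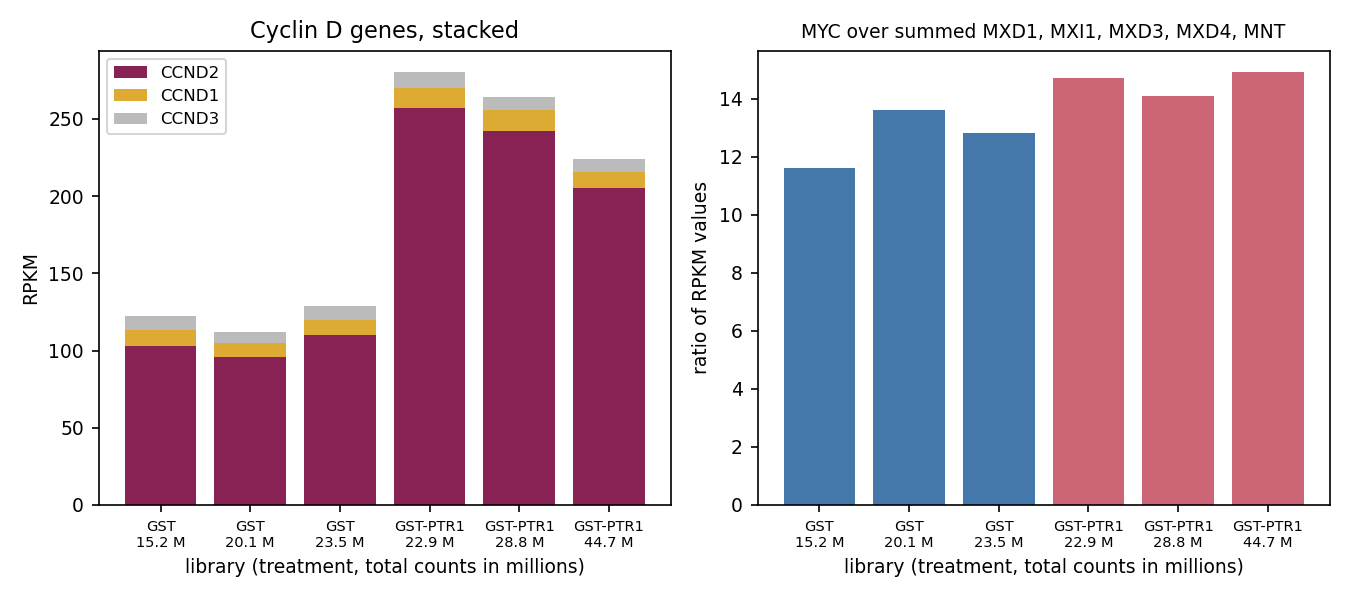
Left, RPKM of CCND2, CCND1 and CCND3 stacked in each library (y axis, from 0); right, MYC RPKM over the summed RPKM of MXD1, MXI1, MXD3, MXD4 and MNT in the 3 GST (blue) and 3 GST-PTR1 libraries (red), each labelled with its total counts. The stacked sum lies between 112.3 and 128.8 with GST and between 224.1 and 280.2 with GST-PTR1, and the MYC ratio between 11.6 and 13.6 and between 14.1 and 14.9.

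Of the 19 listed partners and downstream genes of cyclin D, 3 were called higher and 2 lower, with a median log2 fold change of 0.14. The share called was 26.3%, beside 20.6% of all tested genes. With library totals the balance turned to 2 higher and 4 lower, with a median of -0.06. Without the middle GST library, and likewise without the middle GST-PTR1 library, 2 were called higher and 1 lower. CDK6, a kinase partner of the D-type cyclins, was at 16.4, 16.6 and 13.7 RPKM with GST and at 31.4, 33.1 and 28.9 with GST-PTR1 (log2 1.00, SE 0.11, adjusted p = 0.000126). CDK4, the other partner, was higher in level but was not called, at 45.2 ± 2.68 and 52.8 ± 3.27 RPKM (log2 0.22, 95% interval 0.00 to 0.44, adjusted p = 0.14). The 2 kinases summed to 60.8 ± 1.74 RPKM with GST and to 83.9 ± 3.23 with GST-PTR1.

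Further along the pathway, CCNE2, the cyclin E2 gene, rose from 3.84 ± 0.212 to 11.6 ± 0.880 RPKM (log2 1.6, SE 0.11, adjusted p = 2.74e-06). E2F2, an activating E2F factor, fell from 17.4 ± 2.16 to 7.73 ± 1.05 RPKM (log2 -1.17, SE 0.13, adjusted p = 0.000115). The calls of CDK6, CCNE2 and E2F2 held in all 15 alternatives. CDC25A, a phosphatase that activates CDKs, was called higher from 16.9 ± 1.05 to 22.5 ± 2.77 RPKM (log2 0.42, SE 0.11, adjusted p = 0.0247), but not with library totals (0.234), nor without the middle (0.0754) or the deepest GST library (0.0756) or the shallowest (0.0869) or the middle GST-PTR1 library (0.0699). RBL2, an RB1 relative named after its values were seen, was at 12.1 ± 1.04 and 9.22 ± 0.803 RPKM (log2 -0.40, SE 0.11, adjusted p = 0.0254). Its call was lost without the shallowest (0.0653) or the middle GST library (0.0599) and without the middle (0.106) or the deepest GST-PTR1 library (0.086).

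Inhibitors of these kinases moved in both directions. Of 6 tested, 3 were called higher and 2 lower, and the median was 0.40. This is 83.3% called, beside 20.6% of all tested genes. With library totals 2 were called in each direction, and the median was 0.20. Without the middle or the deepest GST library, or the middle GST-PTR1 library, 2 were called higher and 1 lower. CDKN1A, encoding p21, was at 9.16, 5.89 and 7.62 RPKM with GST and 15.5, 14.1 and 15.6 with GST-PTR1 (log2 1.00, SE 0.15, adjusted p = 0.000968). CDKN1B, encoding p27, rose from 24.5 ± 0.779 to 35.7 ± 0.546 RPKM (log2 0.54, SE 0.09, adjusted p = 0.00193). CDKN1C, encoding p57, fell from 2.29 ± 0.497 to 0.823 ± 0.116 RPKM (log2 -1.47, SE 0.21, adjusted p = 0.000698). These 3 calls held in all 15 alternatives.

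The INK4 inhibitors, which bind CDK4 and CDK6, differed among themselves. CDKN2C had 0 counts in every library. CDKN2B was called higher, at 1.59 ± 0.528 and 2.70 ± 0.0421 RPKM (log2 0.78, SE 0.20, adjusted p = 0.0207), but was lost with library totals (0.0614), without the middle (0.0618) or the deepest GST library (0.0911) and without the middle GST-PTR1 library (0.0566). CDKN2D was called lower, at 3.62 ± 0.653 and 2.42 ± 0.0816 RPKM (log2 -0.57, SE 0.18, adjusted p = 0.045), and was lost without any 1 of the 6 libraries (adjusted p between 0.0594 and 0.143). CDKN2A was at 22.2 ± 3.23 and 26.5 ± 2.25 RPKM and was not called (adjusted p = 0.169).

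**Figure D5:**
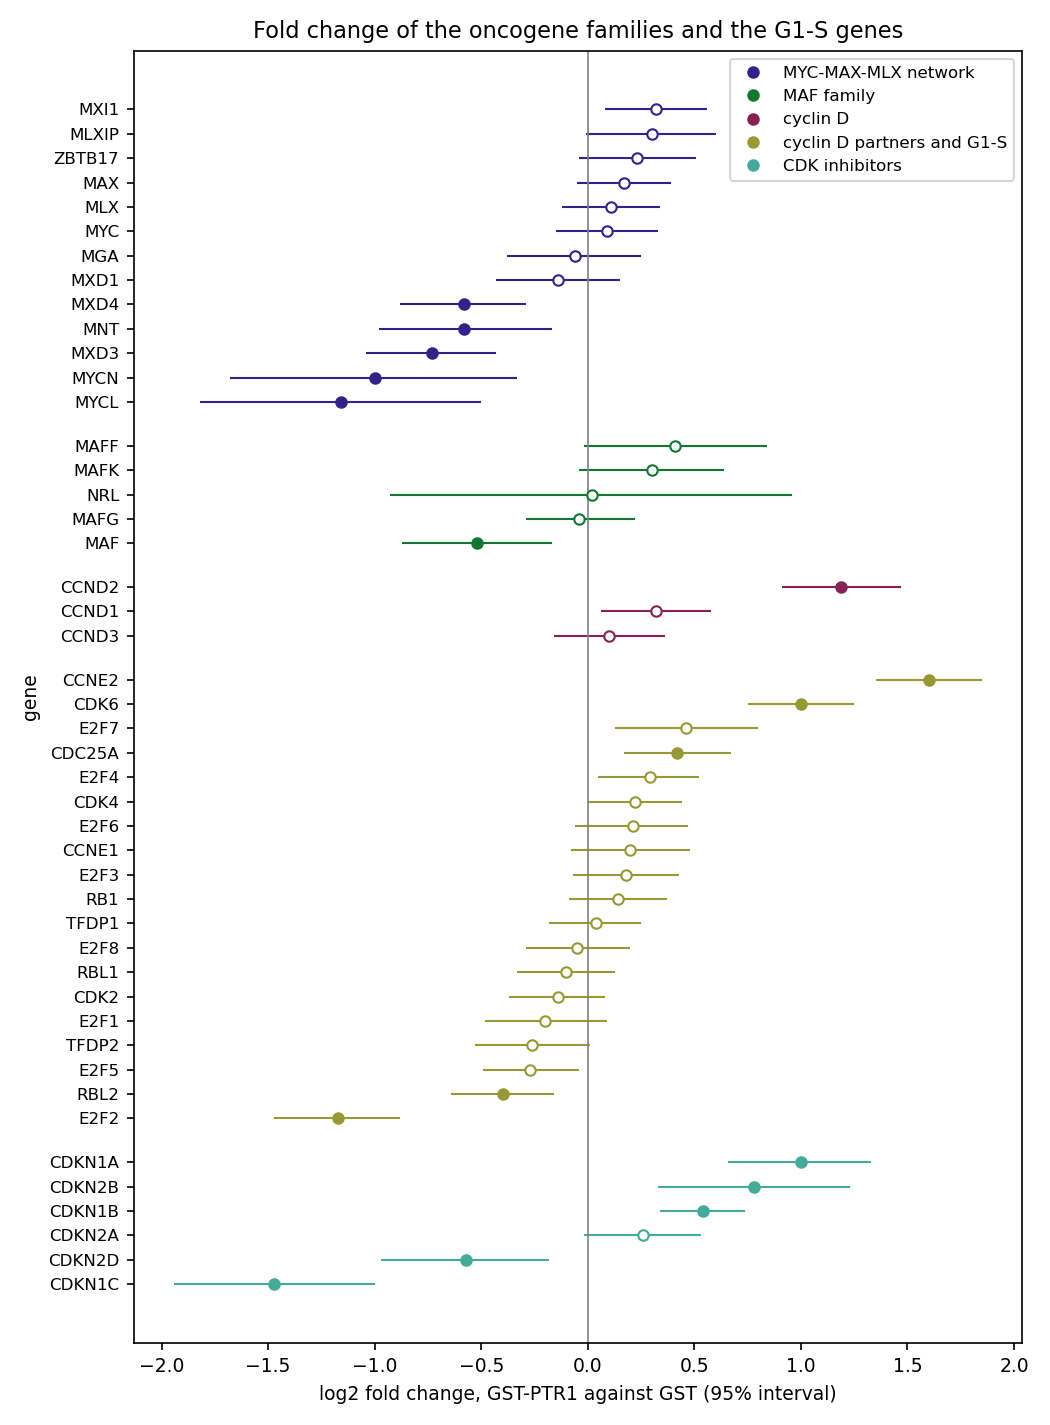
Log2 fold change of GST-PTR1 against GST with its 95% interval (x axis) for the tested genes (y axis) of the MYC-MAX-MLX network, the MAF family, the cyclin D genes, their partners and the CDK inhibitors, colored by list; filled points are called and open points are not. CCND2 at 1.19 and CCNE2 at 1.6 lie to the right, whereas MYC at 0.09 is close to 0.

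Among the genes that immunoglobulin translocations reach in myeloma, 7 of 9 were tested, and 2 were called higher and 1 lower. The called share of 42.9% stands beside 20.6% of all tested genes. Besides CCND2 and MAF, the gene called was IRF4, a transcription factor on which myeloma cells depend, which rose from 46.6 ± 0.900 to 73.3 ± 4.18 RPKM (log2 0.65, SE 0.10, adjusted p = 0.00106). NSD2, which is joined to the immunoglobulin locus together with FGFR3 in some myelomas, was at 7.5 ± 0.849 and 6.82 ± 0.873 RPKM and was not called (adjusted p = 0.462). FGFR3 was below 0.05 RPKM in every library and was not tested.

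Of the neighbours of the 8 genes on their chromosomes, 13 of 21 listed were tested, and 3 were called higher and 0 lower by edgeR's test, with a median of -0.03. Calls covered 23.1% of the tested neighbours and 20.6% of all tested genes. In the lower direction 1 gene, MED20, had an unadjusted p under 0.05, and both DESeq2 and limma's voom called 0. With library totals edgeR's test called MED20 lower (adjusted p = 0.0108), the only call of this gene among the 15 alternatives. Beside CCND3, BYSL, which acts in ribosome assembly, rose from 24.8 ± 1.70 to 35.1 ± 2.10 RPKM (log2 0.50, SE 0.10, adjusted p = 0.00556), while MED20, a Mediator subunit, was at 7.99 ± 0.0498 and 6.62 ± 0.207 (log2 -0.27, adjusted p = 0.0896). Beside CCND2, TIGAR, a regulator of glycolysis, was called higher at 5.52 ± 0.944 and 8.41 ± 1.59 RPKM (log2 0.61, SE 0.18, adjusted p = 0.034). It was lost with library totals and without any 1 of 5 libraries (adjusted p between 0.0535 and 0.111), the exception being the shallowest GST-PTR1 library. SNRNP27, a splicing factor gene that overlaps MXD1, was called higher (log2 0.41, SE 0.11, adjusted p = 0.0248), and this was lost in 8 of 15 alternatives, among them library totals (0.218) and the omission of any 1 library but the deepest GST library (between 0.0527 and 0.0768). Near MYCN, the helicase gene DDX1 was at 52.5 ± 8.19 and 64.6 ± 5.40 RPKM and was not called (adjusted p = 0.129).

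The genes most like each member were taken as those with the smallest root-mean-square distance between centred log2 CPM values over the 6 libraries, out of 16926 genes. For MYC these were ALDH18A1 at 0.0161, LRRC41 at 0.0165 and ASCC2 at 0.0219, and for MAF they were GFOD1 at 0.0292, MAP3K3 at 0.0297 and PRKACA at 0.0338. For CCND2 the distances were larger, with JUN at 0.0609, ANKRD10 at 0.077 and PPM1K at 0.0782. JUN, a subunit of AP-1, was at 9.12 ± 0.759 RPKM with GST and 19.7 ± 2.26 with GST-PTR1 (log2 1.11, SE 0.12). These distances are descriptions of patterns over the same 6 libraries.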

How the data were processed

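RNA-Seq was performed on RPMI8226 cells with 100 nM GST or GST-PTR1 for 6 hr, in 3 libraries each. The table deposited by the authors holds unnormalized read counts for each gene, from featureCounts 1.5.0-p1 with Ensembl release 75 on GRCh37, reverse strand. Multi-mapping reads, and reads shared by overlapping genes, had been left out. The aligner is not given in the sources used here, and the submitters' processing notes also name Subread, FastQC and limma without a role. The deposited table also holds the exon length of each gene.

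Treatments were assigned from the column names. Symbols were matched by Ensembl identifier for 52181 of 63677 genes, and 177 of 180 listed symbols were found; 1 further gene is not reported here. The test of counts was that of edgeR 4.0.16 in R 4.3.3 (TMM, filterByExpr, glmQLFit, glmQLFTest) with Benjamini-Hochberg adjustment over 16926 genes. SE is the log2 fold change over the square root of F. RPKM used TMM-scaled totals and the deposited lengths. The pipeline was tested on simulated data. No 2 libraries of a treatment differed by less than sampling noise (smallest chi-square per gene 8.31). The labels call the 3 libraries of a treatment biological replicates without further detail, so p-values measure the spread between these libraries. Intervals and floors cover counting and library error only.

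Alternatives were DESeq2 1.42.0 size factors or library totals, DESeq2's test, limma 3.58.1 voom, filters of at least 1 count in any or 10 in every library, and omission of each library; others were added after seeing the data. The 8 genes and all lists were chosen with earlier results of these data known. Named genes are the 8, up to 4 of each list with the smallest adjusted p and its 2 most abundant, lists of at most 10 genes in full, the repressors in the MYC ratio, and the 3 nearest patterns of MYC, MAF and CCND2. Promoter sequences came from RefSeq on GRCh38.p14, and no coordinates were carried between builds. Python 3.11.15, pandas 2.3.3, SciPy 1.17.1 and matplotlib 3.10.9 were used.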

Additional observations from a re-analysis of the deposited data

How the results depend on the processing

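Each gene was fitted under 15 alternatives, of which the removal of the exon length trend and the fits of only those 4 libraries that have a column number in common with another treatment's were chosen after seeing the data. CCND2 kept its call in all of them. With library totals MYC was at -0.11, MAX at -0.02 and CCND3 at -0.09, where the median of all genes tested was -0.19. CCND1 was called with a filter of at least 1 count in any library (0.35) and without the length trend (0.38). Genes called over the whole table numbered 3486, with 4914 for at least 1 count in any library, 4722 with library totals and between 2287 and 3349 when a library was left out. Leaving out a library gave log2 values from 0.06 to 0.13 for MYC, -1.24 to -0.63 for MYCN, 0.13 to 0.22 for MAX, -0.24 to -0.06 for MXD1, -0.62 to -0.37 for MAF, 0.27 to 0.44 for CCND1, 1.12 to 1.29 for CCND2 and 0.03 to 0.18 for CCND3. It left between 1 and 3 of the 8 genes called, with 1 without the shallowest or the deepest GST library, between 2 and 5 of the MYC network, 0 and 1 of the listed MAF family genes, 3 and 6 of the cyclin D partners, 3 and 4 of the CDK inhibitors and 9 and 18 of the MYC-activated targets. The MYC-activated count was 11 with library totals and 29 without the length trend. With counts in place of RPKM the shares differed by -2.44 (CCND1), 5.1 (CCND2) and -2.66 percentage points (CCND3). The causes of these changes were not tested.

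The replicate numbers of the labels could not be matched to the columns, so the planned replicate block over all libraries was not run. In the 4 libraries with shared column numbers, the replicate block gave 12 MYC-activated targets and 3318 genes over the table, beside 3638 without it. Of the genes named, MXD4, CDC25A, CDKN2D, USP28, SNRNP27 and XBP1 were not called in either fit of these libraries. Deviations of libraries of the same number correlated with r = -0.0276 for one number and 0.253 for the other over 16926 genes. Libraries of different numbers were not compared in this way, so these values cannot decide whether the numbers mark pairs. The numbers were not taken as pairs in the main fit. With 3 libraries a treatment, exact permutation tests cannot go below 0.1, and MYCN, at 48 to 128 counts, had the widest interval of the 8 genes.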

Other observations

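Of 10 plasma cell markers, 3 were called higher and 3 lower with GST-PTR1 by edgeR's test with Benjamini-Hochberg adjustment. Together they were 60% of the list, beside 20.6% of all tested genes. PRDM1, the transcription factor that sets up the plasma cell program, rose from 9.32 ± 1.17 to 23.7 ± 1.88 RPKM (SD, n = 3 each; log2 1.35, SE 0.12, adjusted p = 1.56e-05), and SLAMF7, a surface receptor, from 1.21 ± 0.0984 to 3.47 ± 0.557 (log2 1.52, SE 0.16, adjusted p = 5.81e-05). The third gene that rose was IRF4. SDC1, the surface proteoglycan CD138 of plasma cells, fell from 104.4 ± 16 to 51.1 ± 4.38 RPKM (log2 -1.03, SE 0.13, adjusted p = 0.000272), and TNFRSF17, the BAFF and APRIL receptor BCMA, from 25.6 ± 3.39 to 9.56 ± 2.6 (log2 -1.41, SE 0.19, adjusted p = 0.000374). XBP1, a transcription factor of the unfolded protein response, was at 132.8 ± 12.9 and 96.0 ± 7.31 RPKM (log2 -0.47, SE 0.11, adjusted p = 0.0149). Its call was lost without the deepest GST library (adjusted p = 0.0599) or the middle GST-PTR1 library (0.0833).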
